A study of Homo sapiens with 6 samples.

Results

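VCAN, FBN2 and LOXL2 are genes of the extracellular matrix that were followed here in A549, a widely used cell line from a human lung adenocarcinoma. They were selected on the measured LA717 minus control difference of their probe sets, because the means of VCAN and FBN2 were lower, and that of LOXL2 was higher, in 2D culture with LA717 than in control culture. In the platform annotation, 4 probe sets name 1 of these 3 genes alone (2 for VCAN, 1 for FBN2 and 1 for LOXL2). They are out of 16098 that name exactly 1 gene and 53617 on the array. In the LA717 group, cells were grown for 7 days on attachment plates in DMEM with 10% FBS to which 0.03% (w/v) of LA717, a low-molecular-weight agar, was added. In the control group the same serum medium received Milli-Q water instead. Each group had 3 arrays (GeneChip Human Gene 2.0 ST). One label of the LA717 arrays names low-attachment plates, against the titles and the treatment protocol of these arrays. The labels do not say that the 3 collections of a group were separate cultures. The study's supplement describes its arrays of 2D and 3D cultures as independent experiments and does not name 2D culture with LA717 there. The p-values given for other genes below measure only the spread between these samples, which for the LA717 arrays may be technical.

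The matrix outside cells is built from fibres and from the water-rich gel between them. VCAN encodes versican, a large chondroitin sulfate proteoglycan that binds hyaluronan and loosens the gel around cells. FBN2 encodes fibrillin-2, a glycoprotein of the microfibrils that carry elastin and hold growth factors of the TGF-β family. LOXL2 encodes a copper-dependent amine oxidase that cross-links collagens, type IV collagen of basement membranes among them, and that has also been studied inside cancer cells as a partner of the epithelial-mesenchymal transition factor SNAI1. All 3 proteins are made by fibroblasts, and each has been studied in the stroma and in the invasion of tumours.

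The array values are log2 intensities of probe sets, on which a difference of 1 is a 2-fold difference. The 6 arrays had medians between 3.19 and 3.23, and arrays correlated in pairs with r between 0.99 and 0.991 across probe sets. Of the epithelial markers, 6 of 8 were measured. EPCAM was at 7.14 ± 0.15 with LA717 and 7.23 ± 0.077 in control (SD, n = 3). KRT18 was the brightest, at 11.05 ± 0.0076 and 11.13 ± 0.093 in the same order. Whether its probe set reads that gene's own locus was not checked. The mean over these 6 markers ranged from 6.69 to 6.85 over LA717 arrays and from 6.75 to 6.85 over control arrays. Markers of alveolar type 2 cells were measured in 8 of 9 genes, of which 1 (SFTPD) reached the median of probe sets that name 1 gene (4.62). Probe sets with a mean under that median are called dim below. SFTPC, which defines these cells, was at 4.39 ± 0.047 with LA717 and 4.32 ± 0.19 in control.

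RefSeq promoters are shown for VCAN and FBN2, the genes that were lower with LA717, to set the start regions of these genes side by side. Each runs from 250 bases before the gene's start to 50 after it, 5′ to 3′ on the gene's strand, and capitals mark the motif matches described next. The VCAN window is chr5:83471494-83471793 on the plus strand and the FBN2 window chr5:128538196-128538495 on the minus strand (GRCh38.p14). The build behind the array values is not stated.
VCAN: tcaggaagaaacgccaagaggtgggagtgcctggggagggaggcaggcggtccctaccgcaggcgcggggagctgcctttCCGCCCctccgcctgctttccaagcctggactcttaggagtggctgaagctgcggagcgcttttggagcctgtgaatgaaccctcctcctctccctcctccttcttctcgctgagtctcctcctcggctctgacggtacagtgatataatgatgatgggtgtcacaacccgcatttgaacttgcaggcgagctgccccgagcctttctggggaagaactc
FBN2: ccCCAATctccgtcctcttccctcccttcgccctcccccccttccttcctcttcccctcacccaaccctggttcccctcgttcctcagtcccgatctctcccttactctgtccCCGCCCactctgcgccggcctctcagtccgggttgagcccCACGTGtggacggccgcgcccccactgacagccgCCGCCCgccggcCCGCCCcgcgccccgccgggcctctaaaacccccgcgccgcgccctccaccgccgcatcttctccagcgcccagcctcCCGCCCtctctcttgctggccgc

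The 2 windows had little in common beyond a GC box. GC boxes (GGGCGG, searched like all motifs on both strands) were matched 4 times in FBN2 and 1 time in VCAN, each as CCGCCC on the strand shown, and in 45.0% of 35116 RefSeq promoters. FBN2 alone had an E-box (CACGTG) at position −97 from the start, found in 7.26% of promoters, and a CCAAT box (CCAAT) at position −248, found in 34.6%. No match to a TATA box (TATAAA, 11.5% of promoters), an AP-1 site (TGANTCA, 7.71%) or a TCF/LEF core (CTTTG, 47.5%) was found in either window. The GC content was 60.3% for VCAN and 72.7% for FBN2, against a median of 58.7% over all promoters, and there were 15 and 30 CpG dinucleotides against a median of 14. In none of the searched motifs did matches overlap another motif's.

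VCAN was lower with LA717 on its bright probe set. The values were 8.02, 8.003 and 8.07 on the LA717 arrays, against 8.41, 8.44 and 8.51 on the control arrays. All LA717 values lay below all control values, with a gap of 0.34 between the nearest arrays of the groups. The means were 8.03 ± 0.036 with LA717 and 8.46 ± 0.050 in control (SD, n = 3), a log2 difference of −0.42 (SE 0.082, moderated), or 1.34-fold.

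The other probe set that names VCAN was dim and did not separate the groups. It gave 2.24, 2.91 and 2.44 with LA717 and 2.75, 2.71 and 2.66 in control. The LA717 values lay on both sides of the control values, and the difference was −0.17 (SE 0.17). Its mean of 2.62 was under the median of all probe sets on the array (3.19). Both probe sets carry the same reference transcript in the annotation. Which part of it each one reads is not given in the sources used here, and the strand each one reads was not checked. In the array's numbering the dim one stands beside HAPLN1, and closer to FBN2, a minus-strand gene, than to the bright one. VCAN lies on the plus strand, so the dim one may not measure VCAN transcript.

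FBN2 was lower in the mean with LA717, and the difference came mostly from 2 of the 3 control arrays. The values were 5.56, 5.63 and 5.61 with LA717, against 5.68, 6.06 and 6.20 in control. The groups did not overlap, but control replicate 1 stood only 0.048 above the highest LA717 array. The means were 5.60 ± 0.034 with LA717 and 5.98 ± 0.27 in control, a difference of −0.37 (SE 0.14), or 1.30-fold. It was −0.52 without control replicate 1, −0.33 without control replicate 2 and −0.27 without control replicate 3.

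LOXL2 was higher with LA717. The values were 7.71, 7.81 and 7.87 with LA717 and 7.54, 7.55 and 7.49 in control. The lowest LA717 array, replicate 1, lay 0.16 above the highest control array. The means were 7.80 ± 0.081 with LA717 and 7.53 ± 0.036 in control, a difference of 0.27 (SE 0.086), or 1.21-fold. LOXL2-AS1, a long non-coding RNA gene that lies across LOXL2 in RefSeq, was at 4.80 ± 0.20 with LA717 and 4.76 ± 0.20 in control, with groups that overlapped. Whether the probe sets tell the strands apart is not stated in the sources used here.

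**Figure D1:**
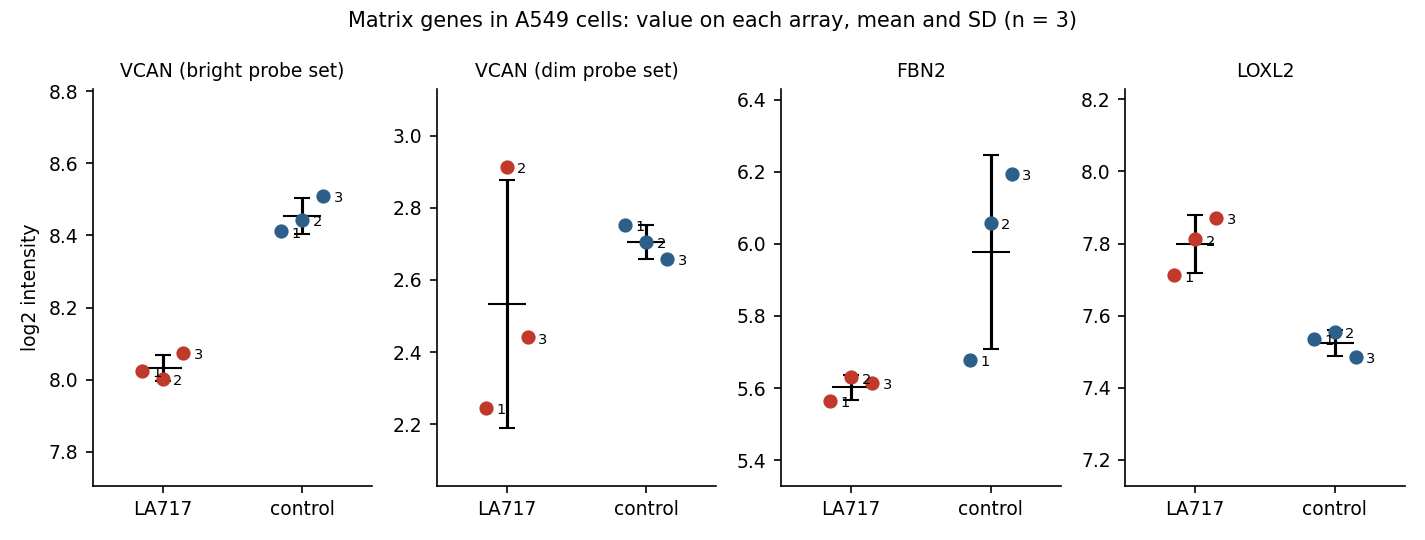
Log2 intensity (vertical axes, each spanning the same range of 1.1) of the probe sets that name VCAN, FBN2 and LOXL2 on each of 3 LA717 arrays (left of each panel) and 3 control arrays (right), with replicate numbers. Horizontal bars are means and whiskers SDs. The bright VCAN probe set sits between 8.003 and 8.07 with LA717 and between 8.41 and 8.51 in control, and FBN2 has 1 control array at 5.68, next to the LA717 arrays.

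These differences chose the genes and are a description, with no test. Groups without overlap were seen in 3 of the 4 probe sets, and in 11.3% of all probe sets that name 1 gene, so nothing is read from that count. By direction, 6.51% of such probe sets had every LA717 array below control and 4.84% had every LA717 array above it. Among the 16098, 85 had a difference as low as that of VCAN or lower, 146 one as low as that of FBN2 and 377 one as high as that of LOXL2. Restricted to the 8049 probe sets with a mean at or above the median, the counts were 32, 54 and 125. The median absolute difference over probe sets that name 1 gene was 0.081.

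**Figure D2:**
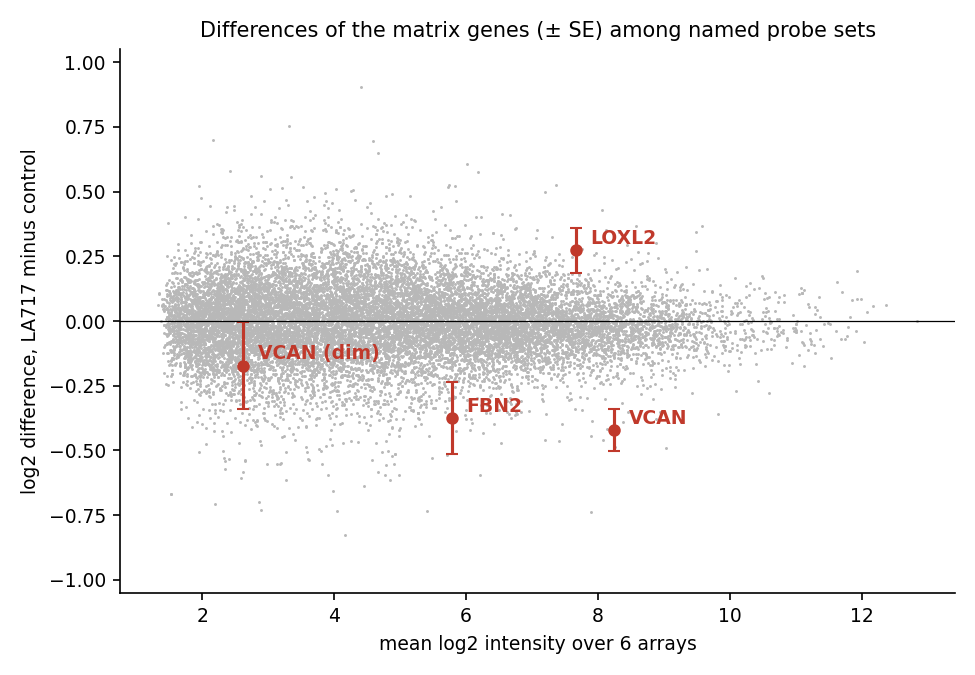
Log2 difference, LA717 minus control (vertical axis), against the mean log2 intensity over 6 arrays (horizontal axis) for the 16098 probe sets that name 1 gene (grey), with VCAN, FBN2 and LOXL2 in red and whiskers of ± 1 SE. VCAN at −0.42 and LOXL2 at 0.27 stand at opposite edges of the cloud at their intensity, and the dim VCAN probe set at −0.17 lies inside it.

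Reading 2 of the genes on the same array gives a difference between them from which a shift of the whole array cancels. It restates the differences that chose the genes and is a description only. The VCAN value exceeded the LOXL2 value by 0.31, 0.19 and 0.20 on the LA717 arrays, against 0.88, 0.89 and 1.02 on the control arrays. The size of this excess depends on the probes, but its change between groups, −0.70, does not depend on array level. The separate values of −0.42 for VCAN and 0.27 for LOXL2 do depend on it. The same change was −0.65 for FBN2 against LOXL2 and −0.05 for VCAN against FBN2. For the last pair the excess of VCAN over FBN2 was 2.46, 2.37 and 2.46 with LA717 and 2.73, 2.38 and 2.31 in control, with groups that overlapped.

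The spread within groups differed among the 3 genes. It is a description only, as the genes were chosen with earlier results of these data known. VCAN had a pooled SD of 0.044, and 9.86% of the 994 named probe sets within 0.5 of its mean intensity had a smaller one. LOXL2 had 0.063, with 21.3% of 1319 such probe sets below it. FBN2 had 0.19, with 83.0% of 2222 below it and a median of 0.12 among them. The wide spread of FBN2 came from control, where replicate 1 deviated from the group mean by −0.30, replicate 2 by 0.08 and replicate 3 by 0.22. On the same arrays VCAN deviated by −0.04, −0.01 and 0.05, and LOXL2 by 0.01, 0.03 and −0.04. With LA717, VCAN and LOXL2 were both highest on replicate 3, and FBN2 on replicate 2.

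Partners and relatives of the 3 genes were read from lists chosen with earlier results of these data known. Of 139 genes in 9 lists, 84 were measured, and in the limma test across all 53617 probe sets 0 of them passed an adjusted p under 0.05. Across all probe sets and across the 14884 genes measured, 0% passed, 5.31% of probe sets had an unadjusted p under 0.05, and the lowest adjusted p among the 84 was 0.908. At an unadjusted p under 0.05 there were 8 of 84 (9.52%), 4 higher and 4 lower, where 4.4% of all genes had one (1.89% higher and 2.51% lower). The groups did not overlap in 10 of 84 (11.9%), against 11.5% of all genes. All LA717 values lay above control in 5 and below it in 5, against 4.86% and 6.66% of all genes. The mean was lower with LA717 in 48 of 84 genes, and in 52.1% of all genes. The median difference over the 84 was −0.02, and −0.01 over all genes. The versican-cleaving ADAMTS proteases (7 genes) and the collagens on which lysyl oxidases act (14 genes) were not analysed here. No probe set naming exactly 1 gene was found for them.

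The hyaluronan-binding relatives and partners of versican went both ways. Of 15 measured genes of the hyaluronan matrix (of 18 in the list), 7 were higher and 8 lower in the mean, with a median of −0.04, and 0 passed the test. NCAN, which encodes the brain relative neurocan, had 4.13, 3.85 and 3.85 with LA717 and 3.66, 3.62 and 3.73 in control. All LA717 values lay above control, with a difference of 0.27 (SE 0.11, limma adjusted p = 0.92), but the gene was dim. ACAN (aggrecan, 0.18) and BCAN (brevican, −0.07) were also dim and overlapped between groups. HAPLN1, whose product links versican-type proteoglycans to hyaluronan, was at 1.80 ± 0.015 with LA717 and 2.03 ± 0.11 in control, near the low end of the array's range. Among brighter members, the hyaluronidase gene HYAL2 gave −0.14, the hyaluronan receptor gene HMMR 0.11 (−0.03 without LA717 replicate 3 and −0.02 without control replicate 1) and the hyaluronan synthase gene HAS3 0.08. HAS2, another synthase gene, was at 6.85 ± 0.15 with LA717 and 6.88 ± 0.45 in control, and the hyaluronan receptor gene CD44 at 7.04 ± 0.071 and 7.11 ± 0.13, in the same order.

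Genes that build the chondroitin sulfate chains carried by versican were lower in the mean in 13 of 18 measured members (of 22 in the list), with a median of −0.04, and 0 passed the test. In this list 1 gene (5.56%) had groups without overlap, against 11.5% of all genes. This gene, DSEL, an epimerase gene that turns chondroitin into dermatan sulfate, was dim. It had 4.28, 4.400 and 4.44 with LA717 and 4.61, 4.78 and 4.83 in control (difference −0.37, SE 0.098, limma adjusted p = 0.908). XYLT1, whose enzyme places the first sugar of the chain on the core protein, was also dim. It had 3.79, 4.003 and 3.65 with LA717 and 4.26, 3.93 and 4.24 in control, with groups that overlapped (−0.33). Brighter members with the greatest differences were the chain-starting enzyme gene CSGALNACT2 (−0.21), the uronyl 2-sulfotransferase gene UST (−0.21) and the chondroitin 6-sulfotransferase gene CHST3 (−0.19). The chain-lengthening genes CHSY1 (0.02) and CHPF (−0.01) hardly differed in the mean.

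The microfibril genes around FBN2 went both ways. Of 23 measured genes (of 27), 10 were higher and 13 lower in the mean, with a median of −0.04, and 0 passed the test. FBN1, the fibrillin gene most used in adult tissue, had 5.99, 5.74 and 5.63 with LA717 and 6.11, 6.31 and 5.73 in control. Its groups overlapped, and the difference of −0.27 (SE 0.17) was −0.43 without control replicate 3 and −0.13 without control replicate 2. Control replicate 3 was thus the lowest control array for FBN1 and the highest for FBN2. FBN3, the remaining fibrillin gene, was dim and gave 0.04. LTBP1, which encodes a protein that ties latent TGF-β to microfibrils, had 6.96, 6.95 and 6.90 with LA717 and 7.07, 7.16 and 7.10 in control, without overlap (−0.17, SE 0.081, limma adjusted p = 0.92). The other gene of this list without overlap was EMILIN1, which was dim and had all LA717 values above control (0.14, SE 0.095, limma adjusted p = 0.92). EFEMP1, encoding the fibulin-family protein fibulin-3, had 6.46, 6.46 and 6.82 with LA717 and 6.74, 6.88 and 6.94 in control, with overlap (−0.27).

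Of growth factor genes tied to microfibrils, 9 of 24 were measured, 6 higher and 3 lower in the mean, with a median of 0.05, and 0 passed the test. THBS1, encoding thrombospondin-1, an activator of latent TGF-β, had 8.10, 8.06 and 8.16 with LA717 and 7.80, 7.82 and 7.92 in control. All LA717 values lay above control, with a difference of 0.26 (SE 0.085, limma adjusted p = 0.92). The bone morphogenetic protein genes BMP4 (0.05) and BMP2 (−0.02) overlapped between groups, and each difference took the other sign on leaving out 1 of the arrays.

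The lysyl oxidase genes other than LOXL2 did not separate the groups. LOX, the founding member, had 3.65, 3.75 and 3.47 with LA717 and 3.66, 3.90 and 3.74 in control (difference −0.14). LOXL4 had 4.76, 4.51 and 4.86 with LA717 and 4.54, 4.85 and 4.99 in control (−0.08). LOXL1 gave −0.03 and LOXL3 0.03, and BMP1, whose protease matures LOX, gave 0.05. The 5 genes of this list had limma adjusted p between 0.924 and 0.992, 0 had groups without overlap, and LOX, LOXL1 and LOXL3 were dim.

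Of the genes of epithelial-mesenchymal transition, with which LOXL2 is often studied, 9 of 11 were measured, 5 higher and 4 lower in the mean, with a median of 0.01, and 0 passed the test. SNAI2, which encodes the transcription factor Slug, had 5.06, 5.12 and 5.45 with LA717 and 4.67, 4.85 and 4.98 in control. Its groups did not overlap (difference 0.38, SE 0.14, limma adjusted p = 0.92). SNAI1, the LOXL2 partner, was dim and gave 0.01. VIM, encoding the filament protein vimentin, was at 8.19 ± 0.080 with LA717 and 8.02 ± 0.20 in control (0.17), with overlap. Other probe sets that name VIM gave smaller differences, 0.10 and 0.075. TWIST2 gave 0.17. FN1, encoding fibronectin, was at 10.80 ± 0.18 with LA717 and 10.90 ± 0.042 in control.

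Genes induced by TGF-β, the growth factor that microfibrils hold in latent form, were measured in 6 of 12 members, 2 higher and 4 lower in the mean, with a median of −0.07, and 0 passed the test. TNC, encoding the versican-binding protein tenascin-C, had 5.70, 5.83 and 5.83 with LA717 and 5.56, 5.63 and 5.41 in control, without overlap (0.25, SE 0.096). SKIL, a feedback inhibitor of SMAD signalling, had 7.91, 7.94 and 7.96 with LA717 and 8.08, 8.21 and 8.23 in control, without overlap (−0.24, SE 0.086). The transcription factor gene JUNB was at 9.10 ± 0.070 with LA717 and 9.28 ± 0.083 in control, without overlap (−0.18). For these 3 genes the limma adjusted p was 0.92. Groups did not overlap in 50% of the 6 measured genes, against 11.5% of all genes. The list is short and was chosen with earlier results of these data known, so nothing is read from this share.

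The 8 genes at an unadjusted p under 0.05 were NCAN, THBS1, SNAI2 and TNC, higher with LA717, and HAPLN1, DSEL, XYLT1 and SKIL, lower. HAPLN1, DSEL, XYLT1, HAS2, CD44, CHSY1, CHPF, EMILIN1, SNAI1 and FN1 were named after their values were seen, the others by a rule. The number at an unadjusted p under 0.05 was 5 with the replicate number as a block and ran from 4 (without LA717 replicate 1, LA717 replicate 3 or control replicate 1) to 9 (without control replicate 3) with 1 array left out, and it was 5 without LA717 replicate 2 or control replicate 2.

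**Figure D3:**
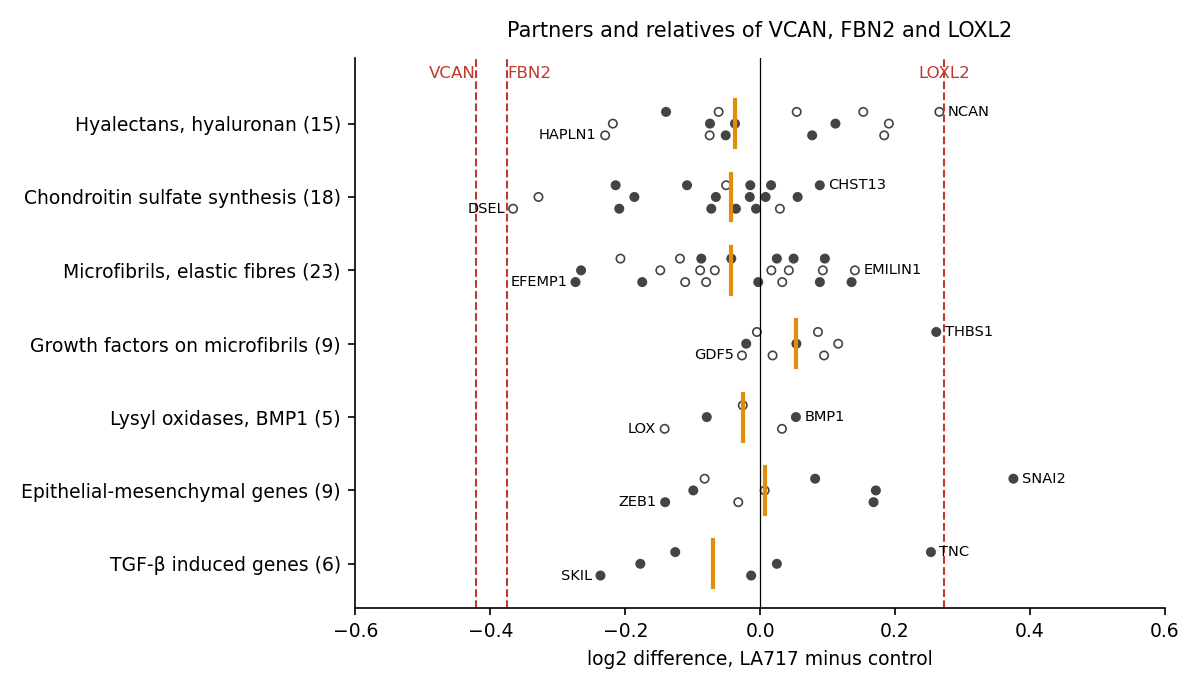
Log2 difference, LA717 minus control (horizontal axis), of each measured gene in 7 lists (rows, number measured in parentheses). Filled circles are genes at or above the median intensity of named probe sets, open circles dimmer genes, orange bars list medians, and dashed red lines the values of VCAN, FBN2 and LOXL2. The list medians lie between −0.07 and 0.05, and the partner gene with the greatest difference is SNAI2 at 0.38.

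Matrix genes are made largely by fibroblasts in tissue, and markers of that cell type were read as well. Of 10 fibroblast markers 3 were measured, DCN at 1.66 ± 0.095 with LA717 and 1.70 ± 0.16 in control, THY1 at 5.28 ± 0.32 and 5.17 ± 0.13 in the same order, and LUM. LUM had 5.57, 5.81 and 6.03 with LA717 and 6.39, 6.14 and 6.02 in control, with overlap (−0.38, SE 0.15, limma adjusted p = 0.92). The mean over the 3 markers ranged from 4.08 to 4.38 with LA717 and from 4.20 to 4.47 in control. Against the median of named probe sets (4.62), LUM and THY1 lay above and DCN below, and DCN was also under the array median of 3.19. Endothelial markers (4 of 6 measured) averaged 2.73 to 2.75 over LA717 arrays and 2.73 to 2.78 over control arrays. Of 6 leukocyte markers 2 were measured. LYZ, also made by epithelium, was dim, at 3.25 ± 0.12 with LA717 and 3.59 ± 0.036 in control. Its groups did not overlap, as in 11.5% of all genes (limma adjusted p = 0.917). CD14 was at 7.77 ± 0.31 with LA717 and 7.86 ± 0.10 in control, with overlap. The mean over both ranged from 5.28 to 5.67 with LA717 and from 5.68 to 5.76 in control. The sample titles name A549 cells only, so these markers are read as genes of that line. Any link of LUM and LYZ to the differences of VCAN and FBN2 was not tested. Fewer cells making a transcript and less of it per cell cannot be told apart in these bulk samples.

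Neighbours of VCAN, FBN2 and LOXL2 were taken in RefSeq order, 3 on either side of each. Only protein-coding genes and genes with a probe set naming them alone were counted. None of those measured passed the test. For VCAN all 6 were measured, with differences from −0.23 to 0.07 and limma adjusted p from 0.92 to 0.975. The lowest of them was HAPLN1, the first gene counted after VCAN, which was near the low end of the array's range (mean 1.91). It was the only measured neighbour of the 3 genes with groups that did not overlap. Groups did not overlap in 11.5% of all genes, so nothing is read from it. EDIL3, the next gene counted, gave 0.07, and XRCC4, before VCAN, −0.14. For FBN2 3 of 6 were measured, with differences from −0.40 for the microRNA gene MIR4633, which overlapped between groups and was dim, to 0.13. For LOXL2 5 of 6 were measured, from −0.10 to 0.08.

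The genes whose profiles over the 6 arrays were most like those of VCAN, FBN2 and LOXL2 were sought among 8048 other probe sets with a mean at or above the median. The measure was the root mean square difference between profiles after each was centred on its own mean, on the log2 scale. It includes the group difference that chose the 3 genes and the order of arrays within groups. The similar genes thus resemble the 3 genes in both by construction and are given with no test. For VCAN, whose own profile had a root mean square size of 0.21, they were the ubiquitin ligase gene RNF144B (distance 0.037), PAPSS2 (0.047) and the fibrinogen chain gene FGB (0.059), where the median distance was 0.23. PAPSS2 encodes a synthase of the sulfate donor used in making sulfated chains, and it had 8.13, 8.19 and 8.24 with LA717 and 8.60, 8.51 and 8.63 in control. FGB had 9.57, 9.59 and 9.75 with LA717 and 9.99, 9.93 and 10.08 in control.

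For FBN2 the closest were PRADC1 (0.047), BEND7 (0.079) and the nicotinamide methyltransferase gene NNMT (0.079), against a median distance of 0.26. PRADC1 had 5.12, 5.12 and 5.17 with LA717 and 5.18, 5.52 and 5.62 in control. BEND7 had 5.03 on control replicate 1 and NNMT 6.64, both next to their LA717 arrays, as in FBN2 and PRADC1. For LOXL2 they were LHFPL7 (0.020), TKFC (0.035) and the mTORC1 inhibitor gene DDIT4 (0.039), against a median of 0.18. DDIT4 had 8.94, 9.10 and 9.04 with LA717 and 8.75, 8.73 and 8.69 in control. As in LOXL2, LA717 replicate 1 was the lowest LA717 array and control replicate 3 the lowest control array in all 3. The search selects for such a likeness.

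**Figure D4:**
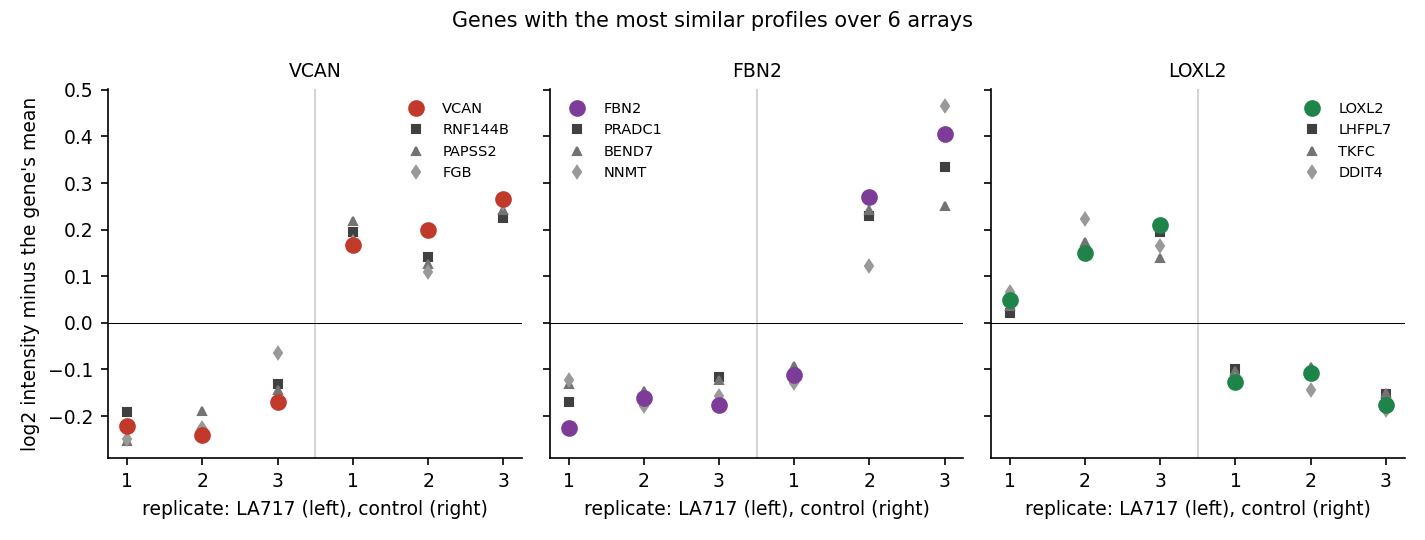
Log2 intensity minus the gene's mean over 6 arrays (vertical axis) on 3 LA717 arrays (left of each panel) and 3 control arrays (right) for VCAN, FBN2 and LOXL2 (large circles) and the 3 genes closest to each. FBN2 and its closest genes share a control replicate 1 near the LA717 arrays, a likeness that the search selects for.

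The differences of the 3 genes kept their sign under each alternative run. With 1 array left out VCAN ran from −0.44 to −0.39, FBN2 from −0.52 to −0.27 and LOXL2 from 0.24 to 0.32. Since their groups do not overlap, leaving out an array could not turn the sign. With quantile normalization the differences were −0.42, −0.38 and 0.28 for VCAN, FBN2 and LOXL2, and with the arrays centred on their medians −0.43, −0.38 and 0.27. The mean of both probe sets that name VCAN gave −0.30, but the dim one may not measure VCAN transcript.

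**Figure D5:**
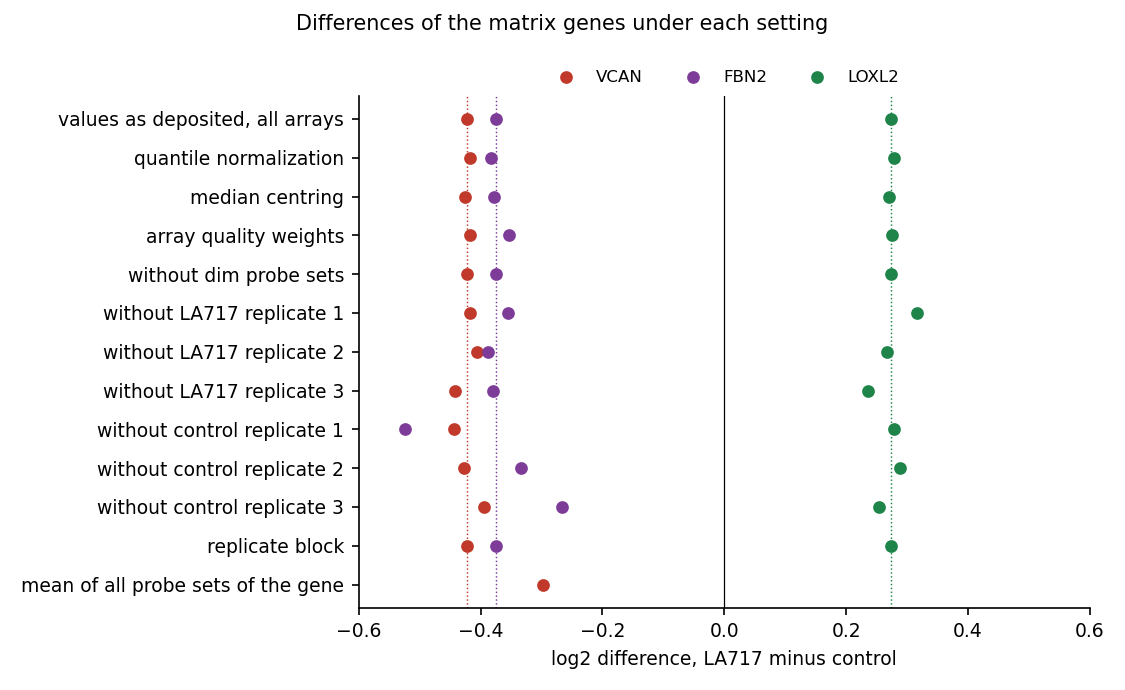
Log2 difference, LA717 minus control (horizontal axis), of VCAN, FBN2 and LOXL2 (colours) under each setting (rows), with dotted lines at the values from all arrays as deposited. In the row without dim probe sets, those under the median of all probe sets (3.19) were left out of the fit. FBN2 moves the most with single arrays, to −0.52 without control replicate 1 and −0.27 without control replicate 3. The mean of the bright and the dim VCAN probe set is −0.30, and the dim one may not measure VCAN transcript.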

How the data were processed

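Total RNA of A549 cells was purified on columns (RNeasy) and hybridised to 6 arrays. The labels name a 3′ IVT labelling kit, and whether it was used for these whole-transcript arrays is not settled. The deposited table holds log2 intensities, computed by the authors in Affymetrix Expression Console. Its version, the summarisation, the normalization and the genome build are not stated in the sources used here, and the log2 scale was taken from the range of the values (0.79 to 13.5). No signal over background is given. The number of arrays, 3 per group, limits the precision. Values were used as deposited.

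Sample titles gave each array's group and replicate number. Only probe sets with exactly 1 gene in the platform annotation were used by name, with symbols from NCBI RefSeq (GRCh38.p14). The other 37519 name no gene or several, and a gene found only among these counts as not measured here. LA717 minus control was fitted by lmFit and eBayes of limma 3.58.1 (R 4.3.3), with two-sided p-values adjusted by Benjamini-Hochberg over 53617 probe sets, in code tested on simulated data with 200 changed probe sets. The study's methods selected genes at 2-fold and name no test for arrays. Each list gene was read by its brightest probe set (a mean under 4.62, the median of named probe sets, is called dim). Members and lists were chosen with earlier results of these data known. The rule named the members, their relatives ACAN, BCAN, NCAN, FBN1 and FBN3, the lysyl oxidase list, the 3 greatest differences per other list among genes that were not dim, and the 3 closest profiles. Alternatives were quantile normalization, median centring, array quality weights, eBayes with trend and robust variance, only probe sets with a mean of at least 3.19 (the median of all), each array left out, a replicate block and, per gene, the mean over probe sets. Python 3.11.15 and matplotlib 3.10.9 drew the figures.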

Additional observations from a re-analysis of the deposited data

How the results depend on the processing

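The number of probe sets at an adjusted p under 0.05 by limma was 0 under each of the 12 alternatives run, as was that of list genes, and 2845 probe sets had an unadjusted p under 0.05 (1598 without probe sets under the median of 3.19, where fewer were tested). The mean of both probe sets that name VCAN gave −0.30, against −0.42 from the bright one, and the dim one may not measure VCAN transcript. FBN2 and LOXL2 have 1 probe set each, so this alternative was not run for them. Some small differences changed sign. With each array left out, LOXL1 ran from −0.10 to 0.019, LOXL3 from −0.093 to 0.15, LOXL4 from −0.21 to 0.020, FBN3 from −0.031 to 0.082, HMMR from −0.033 to 0.27, BMP2 from −0.16 to 0.092 and BMP4 from −0.017 to 0.12, and BMP2 was 0.0028 with array quality weights. The list medians ran from −0.033 to 0.028 for the hyaluronan matrix, from −0.045 to 0.0040 for microfibrils, from −0.13 to 0.0100 for TGF-β induced genes, from −0.074 to 0.11 for epithelial-mesenchymal genes, from −0.097 to 0.020 for the lysyl oxidase family and from −0.034 to 0.012 over all lists. The cause was not tested. Of 397 values of other named genes under alternatives, 380 kept their sign. The replicate number as a block left the differences of VCAN (−0.42), FBN2 (−0.37) and LOXL2 (0.27) as they were, with SEs of 0.089, 0.12 and 0.096, and 0 probe sets passed. The deviations of same-numbered arrays correlated at 0.024, 0.015 and 0.033, the highest values among all pairings across groups. These values are low, and they do not settle whether the numbers mark pairs. Probe sets near background carry little information on change.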
